A study of Mus musculus with 30 samples.

Results

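RNA of brain vessel fragments from Pdgfb mutant mice was compared between cerebellum and cerebrum, on 8 of the 30 mouse arrays in the study. The 8 arrays carry the genotype Tie2Cre, R26P+/0, pdgfb-/-, with 4 labelled cerebellum and 4 labelled cerebrum. They were paired by replicate number and described over 11243 genes, 1 probe set each, whose log2 signal was above 4 on at least 3 arrays. These mutants, on a mixed C57/SV129 background, lack mouse Pdgfb and make platelet-derived growth factor B (PDGF-B) from 1 copy of a human transgene at the Rosa26 locus, switched on by Tie2-Cre. Tie2-Cre acts in endothelium and is known to act in blood-forming cells as well. Their controls (R26P+/0, pdgfb+/+, 4 arrays per region) keep mouse Pdgfb and carry the transgene silent, and wild-type mice (Notch3+/+, C57/B6/J, 3 arrays per region) were normalized apart. The labels give the R26P mice an age of 1 year in the titles and 2 months elsewhere, and the wild-type mice 2 months. The mutant numbers 1 and 4 are labelled female and 2 and 3 male, alike in both regions. The labels call the numbers biological replicates and do not say that both regions of a number came from 1 mouse. The p-values therefore measure the spread of the region difference between numbered pairs of arrays.

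Brain vessels share a barrier endothelium, with tight junctions and dedicated transporters, wherever they run. Their wall and surroundings differ by region: mural cells of forebrain and hindbrain have different embryonic origins, cerebellar vessels lie among Bergmann glia, and the fourth ventricle beneath the cerebellum holds choroid plexus. Pericytes are held at the capillary wall by PDGF-B acting on their receptor PDGFRβ.

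The labels were first checked against defining transcripts. The arrays held endothelium: Cldn5, the tight-junction protein claudin-5, averaged 15.71 ± 0.05 log2 units in mutant cerebellum and 15.67 ± 0.11 in mutant cerebrum (SD, n = 4 each), near the top of the scale. The region labels could not be settled from neural patterning genes. En1, En2, Emx2 and Lhx2, transcription factors of midbrain-hindbrain or forebrain, stood between 2.16 and 2.18 on all 8 arrays, where the lowest value an array can take is 2.16. Gabra6, a GABA-A receptor subunit that granule neurons of the cerebellum express, was at 3.85, 2.93, 2.21 and 3.14 in mutant cerebellum 1 to 4, against 2.16, 2.16, 2.39 and 2.16 in mutant cerebrum. It was higher in cerebellum in pairs 1, 2 and 4 and lower in pair 3.

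Pair 3 stood apart in several ways. Over genes with a mean signal above 6, the SD of the cerebellum minus cerebrum difference was 0.163 log2 units in pair 3, against 0.424, 0.496 and 0.318 in pairs 1, 2 and 4, and 0.349 to 0.432 in the control pairs. Transcripts of pituitary hormones were present in both of its arrays. Gh, growth hormone, was at 2.22, 2.22, 14.75 and 2.17 in mutant cerebellum 1 to 4, against 4.40, 14.69, 14.89 and 2.90 in mutant cerebrum. Mouse Pdgfb, which these animals lack, was at 4.73, 4.86, 7.51 and 5.02 in cerebellum, against 4.73, 6.45, 8.01 and 4.73 in cerebrum. The pair 3 arrays were the highest of their region for Pdgfb, yet far below control levels (12.35 ± 0.20 in cerebellum and 12.66 ± 0.17 in cerebrum, SD, n = 4 each). What set pair 3 apart was not tested, and values without it are given beside those that rest on it most.

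With all 4 pairs, no gene passed the threshold between mutant cerebellum and cerebrum. Limma's paired fit called 0 of 11243 genes (0%) at an adjusted p under 0.05, and the smallest adjusted p was 0.28. At an unadjusted p under 0.05 it listed 1596 genes (14.2%), of which 1086 (9.66%) were higher and 510 (4.54%) lower in cerebellum. In the same fit R26P controls gave 475 genes (4.22%), of which 349 (3.10%) were higher and 126 (1.12%) lower. Wild type gave 135 (1.20%), of which 111 (0.987%) were higher and 24 (0.213%) lower. These counts were unstable too: with 1 pair left out they ran from 37 to 159 in controls and limma called 0 in wild type (1530 to 1711 at an unadjusted p under 0.05). Without the signal filter it called 0 in controls (2381 unadjusted). With the spread estimated over all 16 R26P arrays, 12 of 11243 genes passed in the mutants, 7 higher and 5 lower in cerebellum. Ano1, Cap2, Vstm4, Lama2, Atp13a5, Cspg4 and Kcnj8 were higher, and Ddn, S1pr5, Ebi3, Slc1a3 and Cd247 were lower. All 12 are named because this fit chose them. Atp13a5, Cspg4 and Kcnj8 are pericyte markers. Cspg4 encodes the proteoglycan NG2 and Kcnj8 a potassium channel subunit.

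Without pair 3, 11 genes (0.0978%) differed between the mutant regions. Moxd1, Egr2, Prr32, Ppp1r15a, Nfkbiz, Abca8a, Npr3, Btg2 and Chchd10 were higher in cerebellum (9 genes, 0.08%), and Frzb and Ddn were lower (0.0178%). In all 11 the difference of pair 3 was the smallest in size of the 4. The choice of genes favours this, since they passed without pair 3 and not with it. Of these genes, 9 also differed in controls and 4 in wild type; Abca8a, Btg2, Nfkbiz and Ppp1r15a did in both. Abca8a, Btg2, Chchd10, Frzb and Ddn are named although their values chose them. The count depended on the fit: it was 181 with a stricter filter (mean above 6) and 234 with an intensity trend, while leaving out any further pair left 0. Without the pairing 15 genes passed, only 2 of them among the 11.

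Moxd1, a monooxygenase-like protein of the secretory pathway, was at 8.56, 7.93, 7.59 and 8.71 in mutant cerebellum 1 to 4, against 5.82, 4.96, 6.79 and 5.81 in mutant cerebrum. All cerebellum arrays lay above all cerebrum arrays. The difference was 2.35 ± 0.42 log2 units (SE, limma adjusted p = 0.28) with 4 pairs and 2.87 ± 0.07 (adjusted p = 0.034) without pair 3, where it rose 7.30-fold. Controls differed by 2.23 ± 0.17 (adjusted p = 0.0084).

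Ddn encodes dendrin, a protein of dendrites and kidney podocytes. It was at 2.16, 2.17, 3.56 and 2.21 in mutant cerebellum, against 5.86, 5.53, 5.10 and 6.05 in mutant cerebrum. The groups did not overlap, and only cerebellum 3 was clearly off the lowest value. The difference was −3.11 ± 0.43 with 4 pairs (limma adjusted p = 0.28) and −3.63 ± 0.12 without pair 3 (adjusted p = 0.034), against −3.57 ± 0.14 in controls (adjusted p = 0.0025). Sizes this close to the lowest value depend on the background correction.

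Npr3, a natriuretic peptide clearance receptor, was at 7.83, 7.39, 7.54 and 6.99 in mutant cerebellum, against 6.05, 5.78, 6.89 and 5.27 in mutant cerebrum, again without overlap. It differed by 1.70 ± 0.06 without pair 3 (limma adjusted p = 0.042) and did not pass in controls, where the difference was 1.41 ± 0.37 (adjusted p = 0.11). Prr32, a proline-rich protein, was at 9.07, 9.59, 9.31 and 8.67 in mutant cerebellum, against 6.88, 7.08, 8.37 and 6.50 in mutant cerebrum. Chchd10, a mitochondrial protein of the intermembrane space, and Abca8a, a lipid transporter of the ABC family, differed by 1.42 ± 0.06 and 1.84 ± 0.08 without pair 3 (limma adjusted p = 0.043 each).

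**Figure D1:**
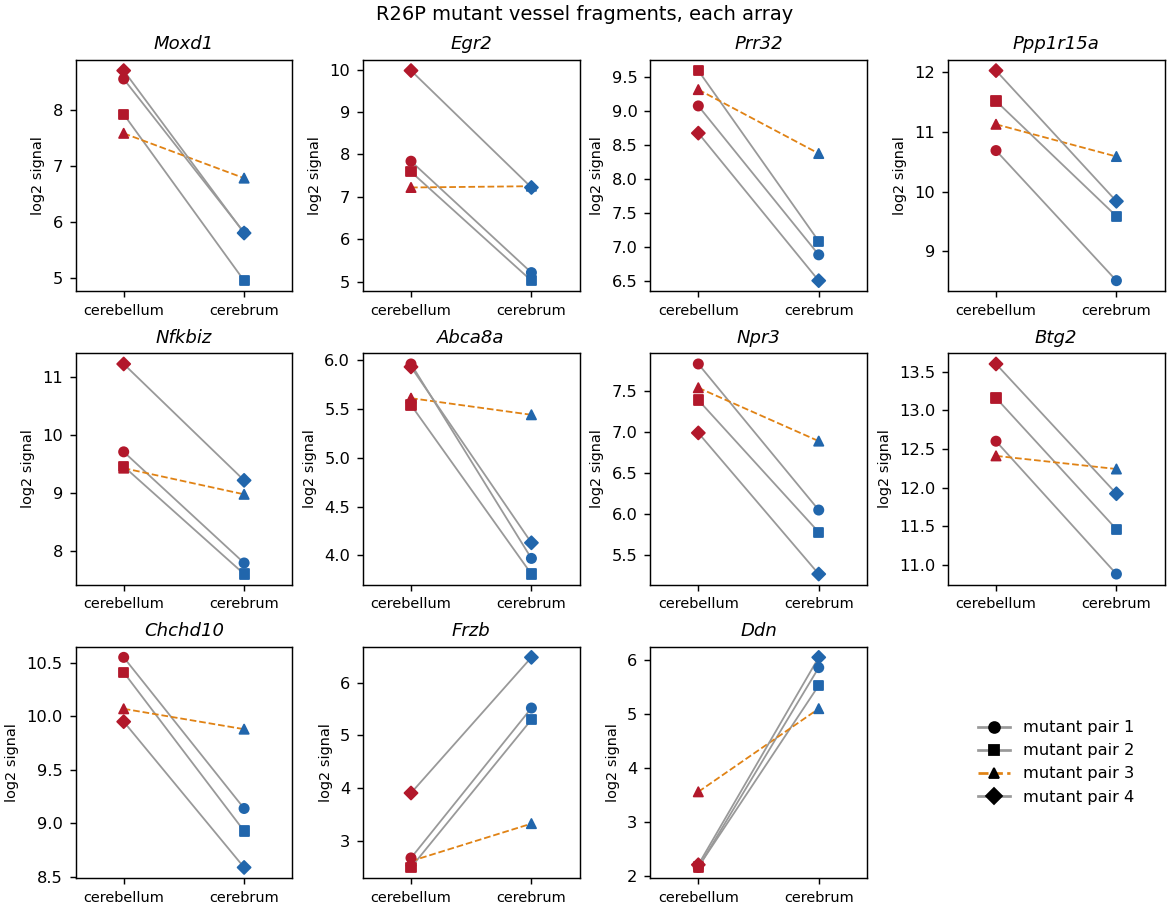
Log2 signal (vertical axis) of the 11 genes past the threshold without pair 3, on each R26P mutant array, cerebellum left and cerebrum right, with a line per pair and pair 3 dashed. In each panel the pair 3 line is the flattest, which the choice of genes favours, since they passed without that pair and not with it. Egr2 in that pair is at 7.22 in cerebellum and 7.25 in cerebrum.

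Most immediate early and stress genes were higher in mutant cerebellum. These are genes transcribed within minutes of a stimulus, such as Fos and Egr1, together with heat shock genes. All 16 members of the list passed the signal filter, and 14 were higher in cerebellum in all 4 pairs, against 15.9% of all genes. In 11 of the 16 all cerebellum arrays lay above all cerebrum arrays, against 2.1% of all genes. The list median was 1.06 log2 units over 4 pairs and 1.33 without pair 3, beside 0.02 over all genes in both cases. With 4 pairs none passed the test, and without pair 3 Egr2 alone did. In controls 11 of 16 passed, all higher in cerebellum (3.1% of all genes did), and in wild type 6 did, also all higher (0.987% of all genes).

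Among the transcription factors, Egr2, a zinc finger factor, was at 7.84, 7.59, 7.22 and 9.98 in mutant cerebellum, against 5.21, 5.02, 7.25 and 7.22 in mutant cerebrum. It was higher in pairs 1, 2 and 4 and level in pair 3, and it differed by 2.65 ± 0.07 without pair 3 (limma adjusted p = 0.034), against 2.69 ± 0.11 in controls (adjusted p = 0.0025). Fosb, an AP-1 subunit, was at 7.52, 7.79, 6.54 and 8.94 in mutant cerebellum, against 4.21, 4.44, 5.76 and 4.49 in mutant cerebrum. The groups did not overlap, and the difference was 2.97 ± 0.62 with 4 pairs (adjusted p = 0.28) and 3.70 ± 0.28 without pair 3 (adjusted p = 0.084). Junb and Atf3, also of the AP-1 and ATF families, differed by 1.85 ± 0.39 and 1.91 ± 0.41 with 4 pairs (adjusted p = 0.28 each). Without pair 3 neither passed (adjusted p = 0.087 and 0.077).

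Egr1, a zinc finger factor related to Egr2, was at 13.96, 14.16, 13.62 and 14.33 in mutant cerebellum, against 11.72, 12.37, 13.25 and 12.51 in mutant cerebrum. Even cerebrum 3, the highest of its group, lay below every cerebellum array. The bright Fos and Dusp1, a phosphatase that acts on MAP kinases, differed by 0.92 ± 0.25 (limma adjusted p = 0.29) and 0.97 ± 0.26 (adjusted p = 0.28). The heat shock protein gene Hspa1a differed by 1.20 ± 0.26 (adjusted p = 0.28) and was higher in cerebellum in 4 of 4 pairs; without pair 3 it differed by 1.51 ± 0.11 (adjusted p = 0.084). Fosb, Junb, Atf3, Egr1 and Hspa1a are named after their values were seen.

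Btg2, Ppp1r15a and Nfkbiz, all of the 11, are in no list and are set here only for their values. Btg2, an antiproliferative gene, was at 12.60, 13.16, 12.41 and 13.60 in mutant cerebellum, against 10.88, 11.46, 12.24 and 11.92 in mutant cerebrum. Its cerebellum values all lay above its cerebrum values. It differed by 1.70 ± 0.05 without pair 3 (limma adjusted p = 0.034), against 0.91 ± 0.06 in controls, and the difference between genotypes was 0.79 without pair 3 (adjusted p = 0.025) and 0.41 with it (adjusted p = 0.71). Ppp1r15a, the stress-induced phosphatase subunit GADD34, differed by 2.10 ± 0.08 without pair 3 (adjusted p = 0.042), and Nfkbiz, an inducible nuclear regulator of NF-κB, by 1.92 ± 0.06 (adjusted p = 0.034). Nfkbiz was brightest on cerebellum 4, at 11.22.

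The 200 bases before the start of 4 of these genes are printed because they belong to the genes that were higher in mutant cerebellum and can be read for the letters of known response elements. They are RefSeq sequences of build GRCm38.p6: Egr2 at chr10:67537669-67537868, plus strand; Btg2 at chr1:134079156-134079355, Ppp1r15a at chr7:45526269-45526468 and Fosb at chr7:19310046-19310245, all minus strand. Capitals mark the short form of the cAMP response element, TGACG, or its reverse complement CGTCA, and in Egr2 also the serum response element known as the CArG box. Each runs 5′ to 3′ and ends at the base before the start.
Egr2: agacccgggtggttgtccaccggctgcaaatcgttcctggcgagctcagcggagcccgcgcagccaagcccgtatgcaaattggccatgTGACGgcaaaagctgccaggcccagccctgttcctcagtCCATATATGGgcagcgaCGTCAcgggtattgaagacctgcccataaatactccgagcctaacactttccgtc
Btg2: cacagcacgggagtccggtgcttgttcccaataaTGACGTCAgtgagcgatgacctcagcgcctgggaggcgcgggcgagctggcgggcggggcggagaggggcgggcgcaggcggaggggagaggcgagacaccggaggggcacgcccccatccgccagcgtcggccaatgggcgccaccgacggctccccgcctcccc
Ppp1r15a: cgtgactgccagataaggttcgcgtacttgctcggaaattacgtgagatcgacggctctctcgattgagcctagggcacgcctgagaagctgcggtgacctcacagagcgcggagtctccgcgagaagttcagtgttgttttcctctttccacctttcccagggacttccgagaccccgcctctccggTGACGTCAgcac
Fosb: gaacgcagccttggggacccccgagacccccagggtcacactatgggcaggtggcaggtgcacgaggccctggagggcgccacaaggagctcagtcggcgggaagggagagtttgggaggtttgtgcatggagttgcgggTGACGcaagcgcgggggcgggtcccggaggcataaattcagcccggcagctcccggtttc

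In Btg2 and Ppp1r15a the short form and its reverse complement overlap, so that 2 matches share their middle bases. Egr2 has 5 windows in the table, and the one printed is that with the most matches. On either strand the short form lies in 15.7% of all 32851 windows of this length, in 23.6% of the windows of genes tested here and in 11 of 19 windows of the immediate early and heat shock list, which cover 14 of its 16 genes. The CArG box lies in 1.18% of all windows and in 4 of the 19, all of Egr2. By gene, 9 of the 14 list genes have the short form, against 2549 of 9136 genes tested here. All 4 printed genes have it and no gene without it is printed, so they do not stand for the other genes. A match describes the letters and shows no binding.

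Choroid plexus transcripts, from the epithelium that secretes cerebrospinal fluid, were also higher in mutant cerebellum. Of 16 listed genes 12 passed the filter, and all 12 were higher in cerebellum in 4 of 4 pairs (15.9% of all genes were), 6 of them without overlap (2.1% of all genes). None passed the test in the mutants, and 2 of the 12 did in controls, each higher in cerebellum (3.1% of all genes did). The list median was 1.68 log2 units over 4 pairs, with 2.42, 2.51, 0.57 and 1.34 in pairs 1 to 4, 2.07 without pair 3, and 1.41 in controls. Over the 15 members on the array, the mean level was 8.41 to 9.24 in mutant cerebellum and 7.20 to 8.50 in mutant cerebrum, where array 3 was the highest. A vessel fragment preparation can carry such epithelium, and its part in the other region differences was not tested.

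Slc4a5, a bicarbonate transporter of this epithelium, was at 8.61, 8.15, 7.94 and 7.33 in mutant cerebellum, against 4.12, 4.21, 7.25 and 4.19 in mutant cerebrum. Cerebrum 3 stood far above the other cerebrum arrays and just under the lowest cerebellum array. The difference was 3.06 ± 0.67 with 4 pairs (limma adjusted p = 0.28) and 3.86 ± 0.29 without pair 3 (adjusted p = 0.084). The channel subunits Kcne2 and Kcnj13 differed by 2.29 ± 0.51 and 1.61 ± 0.34 with 4 pairs, and Otx2, a transcription factor that the adult choroid plexus keeps, by 2.08 ± 0.45 (adjusted p = 0.28 each). Ttr, the thyroid hormone carrier transthyretin, was near the top of the scale in both regions, at 15.72 ± 0.04 in mutant cerebellum and 15.55 ± 0.10 in mutant cerebrum (SD, n = 4 each). Slc4a5, Kcne2 and Otx2 are named after their values were seen.

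Ppp1r1b, which encodes the phosphatase inhibitor DARPP-32 of striatal neurons, was higher in mutant cerebellum and is named after its values were seen. It was at 7.31, 7.51, 7.33 and 6.64 in mutant cerebellum, against 3.60, 3.88, 6.17 and 3.88 in mutant cerebrum. As for Slc4a5, cerebrum 3 was the only cerebrum array near the cerebellum values. The difference was 2.81 ± 0.48 (limma adjusted p = 0.28) in the mutants and 1.87 ± 0.32 in controls (adjusted p = 0.046). The other 5 forebrain neuron genes tested ranged from −0.22 to 0.23.

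**Figure D2:**
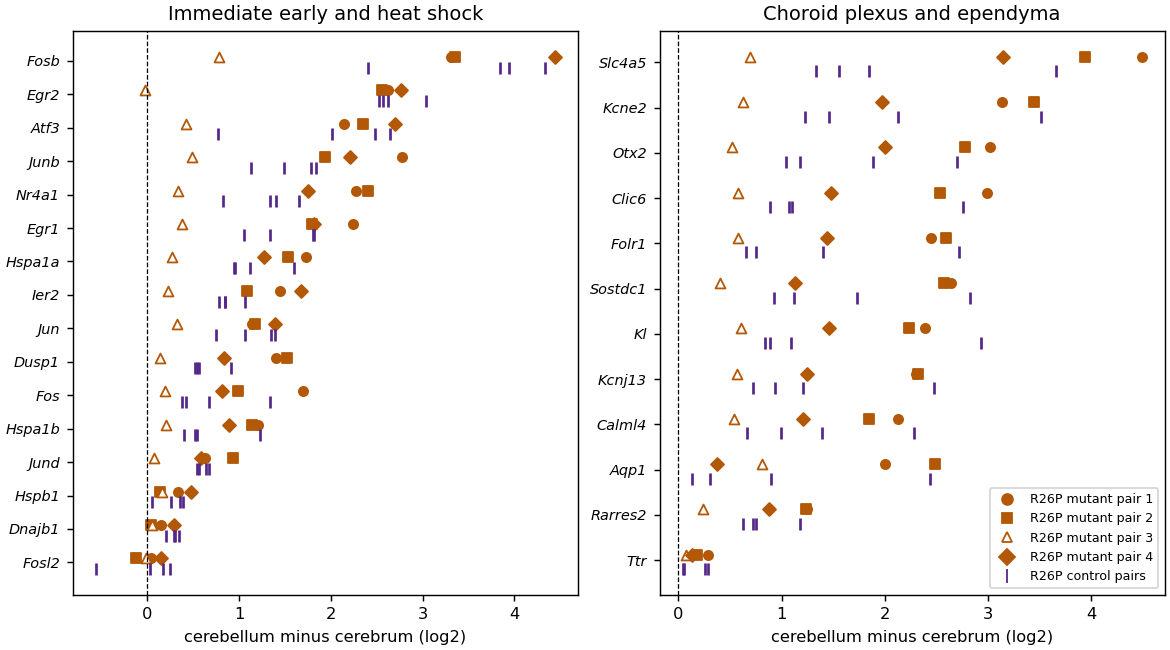
Cerebellum minus cerebrum difference in log2 units (horizontal axis) for each tested member of the immediate early and heat shock list (left panel) and the choroid plexus list (right panel). Filled symbols and the open triangle are the R26P mutant pairs, with pair 3 open, and bars are the R26P control pairs; for Fosb pair 3 lies left of the other mutant pairs.

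Pericyte markers were higher in mutant cerebellum than in mutant cerebrum. Of 25 listed genes 22 passed the filter, 17 of them were higher in all 4 pairs (15.9% of all genes were), and the list median was 0.88 log2 units with 4 pairs and 1.06 without pair 3. None passed the test in the mutants. In controls 17 of 22 passed, all higher in cerebellum (3.1% of all genes did), with a median of 0.68. In these bulk samples, fewer cells of a type and less RNA per cell cannot be told apart. The mean level over the 24 members on the array was 7.33 to 8.48 in mutant cerebellum and 6.67 to 7.74 in mutant cerebrum, lowest on array 4 in both.

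Kcnj8 was at 8.21, 8.86, 8.18 and 6.41 in mutant cerebellum, against 6.24, 7.57, 7.55 and 4.77 in mutant cerebrum. The groups overlapped because both arrays of pair 4 were low, while the pairs differed one way. It differed by 1.38 ± 0.23 (limma adjusted p = 0.28) in the mutants, by 1.63 ± 0.15 without pair 3 (adjusted p = 0.10), and by 1.31 ± 0.09 in controls (adjusted p = 0.0055). Abcc9, its partner subunit in pericyte potassium channels, was at 9.58, 9.58, 8.86 and 8.72 in mutant cerebellum, against 8.04, 7.94, 8.55 and 6.92 in mutant cerebrum, with no overlap. It differed by 1.32 ± 0.28 (adjusted p = 0.28), and by 1.66 ± 0.08 without pair 3 (adjusted p = 0.053). Both are named after their values were seen.

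Pdgfrb, the receptor for PDGF-B, was at 11.07, 11.14, 10.50 and 10.05 in mutant cerebellum, against 10.12, 9.95, 10.41 and 9.29 in mutant cerebrum. The ranges overlapped, and the difference was 0.75 ± 0.19 (limma adjusted p = 0.28) in mutants, against 0.55 ± 0.08 in controls (adjusted p = 0.033). Rgs5, a G protein regulator, and Vtn, which encodes vitronectin, differed by 0.55 ± 0.11 and 0.87 ± 0.18 (adjusted p = 0.28 each). Zic1, a transcription factor present in brain mural cells as well as in granule neurons, was at 10.58, 10.35, 9.89 and 9.79 in mutant cerebellum, against 9.49, 8.69, 9.67 and 8.54 in mutant cerebrum, and differed by 1.06 ± 0.25 (adjusted p = 0.28). For all 22 members the difference between genotypes was not past the threshold, with a list median of 0.22 for mutant minus control.

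Other wall and matrix genes behaved more unevenly. Of 17 smooth muscle genes tested, 9 were higher in cerebellum in all 4 pairs (15.9% of all genes were) and 1 was lower (8.15%). Pair medians were 0.60, 1.26, 0.18 and 0.07. Acta2, smooth muscle actin, averaged 15.13 ± 0.33 in mutant cerebellum and 14.84 ± 0.27 in mutant cerebrum (SD, n = 4 each; limma adjusted p = 0.40). Myl9, a myosin light chain, differed by 0.63 ± 0.18 (adjusted p = 0.30). Of 23 perivascular fibroblast and meningeal genes tested, 12 were higher in all 4 pairs (15.9% of all genes were), with a median of 0.55. In controls 8 passed, all higher in cerebellum (3.1% of all genes did). In mutants the members ranged from −0.23 to 2.13. Of 16 basement membrane genes, 11 were higher in all 4 pairs (15.9% of all genes were), with a median of 0.16.

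Vstm4, a membrane protein with an immunoglobulin domain, Cap2, which acts on actin, and Ano1, a calcium-activated chloride channel, were among the genes with the smallest p-values and belong to no list. Vstm4 was at 6.99, 7.13, 5.96 and 5.63 in mutant cerebellum, against 4.93, 5.19, 4.86 and 4.21 in mutant cerebrum. All cerebellum arrays were above all cerebrum arrays, and the difference was 1.63 ± 0.18 (limma adjusted p = 0.28). Cap2 differed by 1.20 ± 0.13 and Ano1 by 1.20 ± 0.16 (adjusted p = 0.28 each), and both were lowest on array 4 of each region. Pifo, a protein of primary cilia, was at 6.32, 6.73, 6.38 and 5.85 in mutant cerebellum, against 4.32, 4.23, 5.05 and 4.35 in mutant cerebrum, and differed by 1.83 ± 0.21 (adjusted p = 0.28).

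The 18 pan-endothelial genes tested had a median of 0.05 log2 units and ranged from −0.08 to 0.32. Slc2a1, the glucose transporter GLUT1, was at 15.03 ± 0.05 in mutant cerebellum and 14.97 ± 0.05 in mutant cerebrum (SD, n = 4 each), a difference of 0.05 with a 95% interval from −0.06 to 0.17. The interval for Cldn5 was −0.08 to 0.16, and for Slco1a4, an organic anion transporter, −0.10 to 0.13. Junction genes had a median of 0.06 over 11 tested. Among 22 barrier transporters the median was 0.15 and 11 were higher in all 4 pairs, against 15.9% of all genes.

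Mfsd2a, a lysolipid transporter that endothelium needs to keep vesicle transport low, had the largest difference of the barrier transporter list. It was at 13.02, 12.90, 12.66 and 11.74 in mutant cerebellum, against 12.35, 11.74, 12.43 and 10.49 in mutant cerebrum. The ranges overlapped because cerebellum 4 was low, and each pair was higher in cerebellum. The difference was 0.83 ± 0.19 (limma adjusted p = 0.28), and 1.03 ± 0.14 without pair 3 (adjusted p = 0.14). In controls Mfsd2a differed by 0.08 ± 0.08 (adjusted p = 0.61) and in wild type by −0.39 ± 0.14 (adjusted p = 0.23). The difference between genotypes did not pass the threshold for Mfsd2a or any other barrier transporter tested, with or without mutant pair 3. Angpt2, an endothelial ligand of Tie2 that destabilises vessels, was at 12.32, 11.89, 12.50 and 12.28 in mutant cerebellum, against 12.78, 12.83, 12.63 and 12.61 in mutant cerebrum. No cerebellum value reached the cerebrum values, and the difference was −0.46 ± 0.14 (adjusted p = 0.31), against −0.15 ± 0.16 in controls. For Angpt2 the difference between genotypes was −0.32 (limma adjusted p = 0.68).

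Signalling lists had small medians, beside 0.02 over all genes. The 20 Wnt and 17 TGF-beta and BMP genes tested had medians of 0.02 and −0.03, and the 18 sprouting and hypoxia genes 0.03. The 16 Notch genes had a median of 0.17, with 9 higher in all 4 pairs (15.9% of all genes were), and 5 of the 17 TGF-beta and BMP genes were lower in all 4 (8.15% of all genes). Notch1, the endothelial receptor, differed by 0.14 ± 0.05 (limma adjusted p = 0.35), and Hey1, a Notch target, by 0.11 ± 0.07 (adjusted p = 0.48). Arterial and venous endothelial genes had medians of 0.12 and 0.005. Edn1, the vasoconstrictor endothelin-1, differed by −0.02 ± 0.06, and Vwf, von Willebrand factor, by 0.02 ± 0.05.

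Glial and immune transcripts went both ways. A2m, a protease inhibitor found in Bergmann glia, was at 8.62, 7.38, 7.12 and 8.19 in mutant cerebellum, against 4.97, 4.77, 6.47 and 6.22 in mutant cerebrum, without overlap. It differed by 2.22 ± 0.50 (limma adjusted p = 0.28), against 2.05 ± 0.37 in controls (adjusted p = 0.049), and is named after its values were seen. Hopx, a homeodomain protein of astroglia, differed by 1.48 ± 0.41 (adjusted p = 0.29). The 8 Bergmann glia genes tested had a median of 0.75. The 14 astrocyte genes tested had a median of 0.34, and 0.48 without pair 3, with 1.16, 0.33, −0.03 and −0.09 in pairs 1 to 4. Of these, 3 were higher in all 4 pairs (15.9% of all genes were) and 1, Slc1a3, was lower (8.15%). Slc1a3, the glutamate transporter GLAST, went the other way, at 7.60, 7.50, 6.30 and 7.55 in mutant cerebellum, against 8.31, 8.10, 7.09 and 8.74 in mutant cerebrum. Every pair was lower in cerebellum, by −0.82 ± 0.11 (adjusted p = 0.28), and in controls Slc1a3 fell by 1.80 on the log2 scale (SE 0.09, adjusted p = 0.0027). The difference between genotypes was 0.98 (limma adjusted p just under 0.05), which was lost without mutant pair 3 (adjusted p = 0.11).

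Of 18 microglial genes tested, 7 were lower in mutant cerebellum in all 4 pairs, against 8.15% of all genes, and none was higher in all 4. The median was −0.39, and −0.56 without pair 3, with −0.31, −1.03, 0.10 and −0.26 in pairs 1 to 4. The mean level over the 18 members was 9.69 to 11.24 in mutant cerebellum and 9.99 to 11.58 in mutant cerebrum, highest on array 4 in both. Csf1r, the receptor that microglia need to survive, differed by −0.23 ± 0.10 (limma adjusted p = 0.40). Among genes named for the smallest p-values, Ebi3, a cytokine subunit, was at 5.71, 5.93, 6.15 and 8.99 in mutant cerebellum, against 6.70, 6.67, 6.89 and 9.61 in mutant cerebrum. Pair 4 was high for Ebi3 in both regions, and the difference was −0.77 ± 0.07 (adjusted p = 0.28). Ms4a6c, a membrane protein of myeloid cells, and Casp1, the inflammasome protease, differed by −0.53 and −0.42, each lower in 4 of 4 pairs. Ccl3, a chemokine, was higher in cerebellum by 1.78 ± 0.22 (adjusted p = 0.28), and also by 2.98 ± 0.42 in controls (adjusted p = 0.029).

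**Figure D3:**
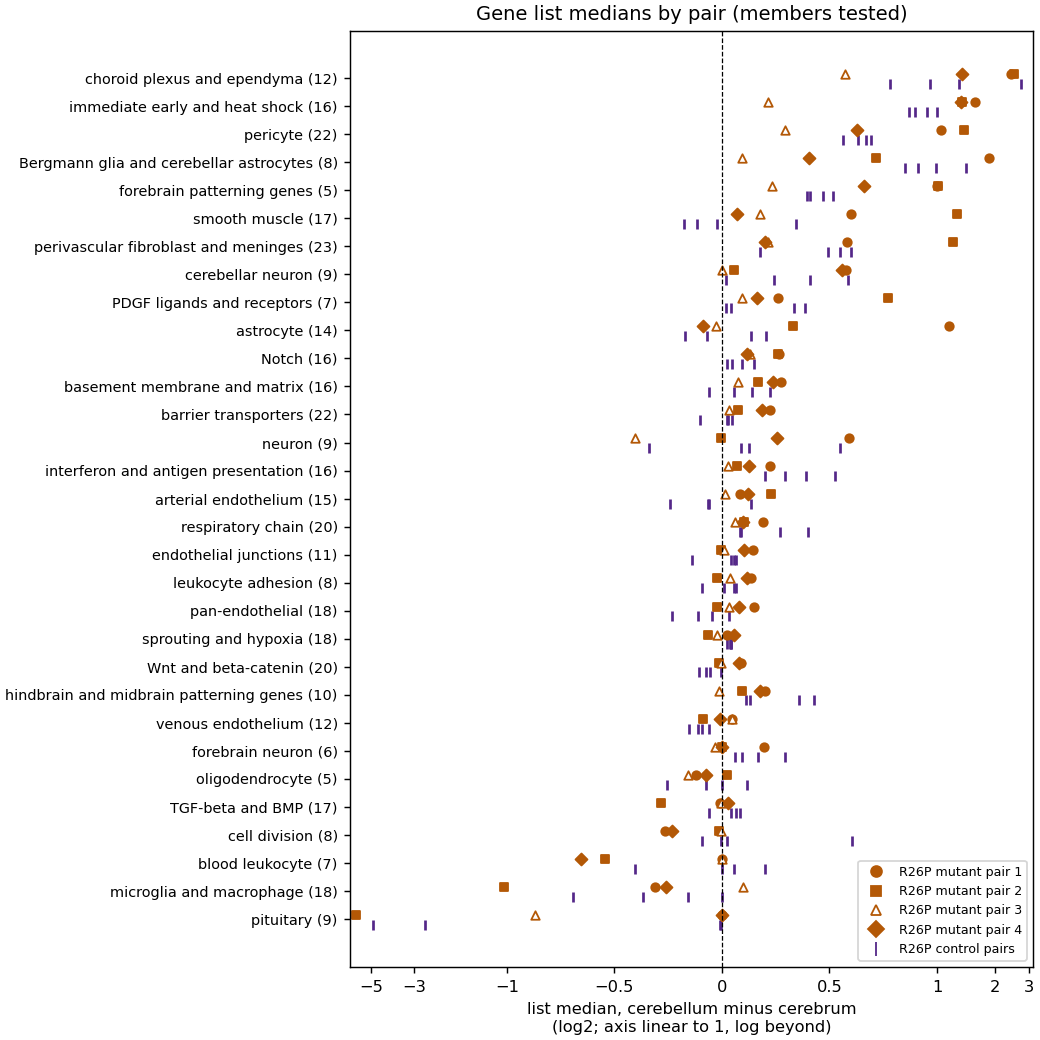
Median cerebellum minus cerebrum difference in log2 units (horizontal axis, linear to 1 and logarithmic beyond) over the tested members of each list with at least 5, number of members in brackets, one symbol per R26P mutant pair with pair 3 open, and bars for R26P control pairs. The choroid plexus list is at the top, with mutant pair medians from 0.57 to 2.51, and the pituitary list at the bottom.

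The pituitary list was lower in mutant cerebellum, with a median of −1.90 over 9 genes tested and pair medians of 0, −5.99, −0.87 and 0. It followed single arrays: Cga, the common hormone subunit, was at 2.78, 2.78, 14.42 and 2.78 in mutant cerebellum, against 6.19, 13.93, 14.78 and 3.86 in mutant cerebrum. None of the 9 had an unadjusted p under 0.05 in the mutants. Neuronal and oligodendrocyte lists had medians of 0.13 and −0.03. Of 20 cerebellar neuron genes 9 were tested, with a median of 0.48 and 3 higher in all 4 pairs (15.9% of all genes were). That median equals the difference of Car4, which was bright in both regions, at 11.81 ± 0.58 in mutant cerebellum and 11.33 ± 0.70 in mutant cerebrum (SD, n = 4 each). The cells that gave this signal were not tested. Only 3 of the 20 were above 4 on each mutant cerebellum array, and Gabra6 reached 3.85 at most. The respiratory chain genes, 14 of 20 higher in all 4 pairs (15.9% of all genes were), had a median of 0.12.

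The regional pattern of controls was then followed in the mutants, as a description, over the 475 genes that the control arrays chose. Of the 349 genes that rose in control cerebellum, 318 (91.1%) had the same sign in the mutants and 205 (58.7%) had it in all 4 pairs, against 15.9% of all genes. Their median difference was 0.53 in mutants, 0.68 without pair 3, and 0.88 in controls. Over all genes these medians were 0.02, 0.02 and 0.03. Of the 126 genes that fell, 110 (87.3%) had the same sign and 60 (47.6%) had it in all 4 pairs, against 8.15% of all genes, with medians of −0.36 in mutants, −0.45 without pair 3, and −0.96 in controls. The control medians are raised by the choice of genes, and the mutant ones are not. Wild type, also not used in the choice, had medians of 0.49 and −0.55. In 82 (23.5%) of the 349 genes and 34 (27%) of the 126, the mutant difference was smaller in size than the control difference divided by 4. The mean over the mutant arrays was below 4 in 21 of the 82 and 10 of the 34.

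**Figure D4:**
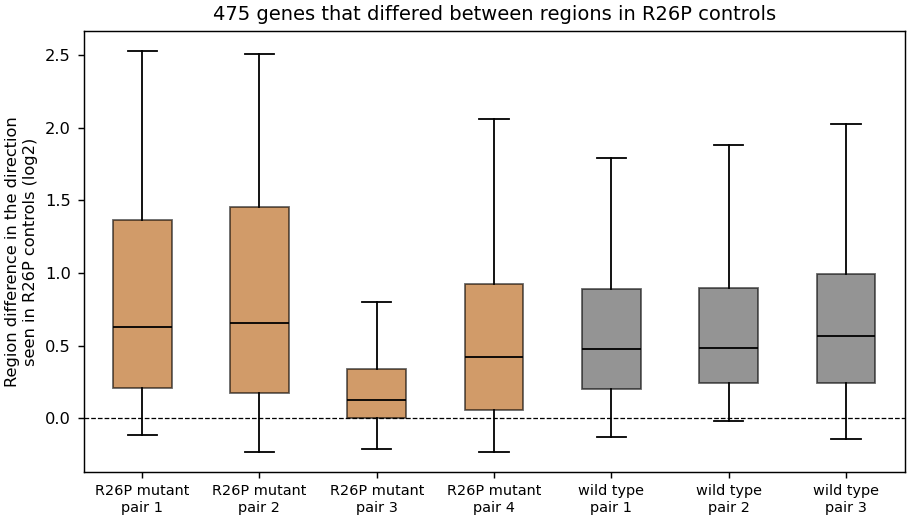
Cerebellum minus cerebrum difference, in log2 units and turned to the direction seen in R26P controls (vertical axis), of the 475 genes called in controls, for each R26P mutant and wild-type pair; boxes span quartiles with the median line, and whiskers the 5th to 95th percentiles. The medians are 0.627, 0.656, 0.128 and 0.425 in mutant pairs 1 to 4 and 0.476 to 0.564 in wild type.

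Whether the region difference itself differed between genotypes was tested over the 16 R26P arrays. It did for 29 genes (0.258%), 11 (0.0978%) with a positive and 18 (0.16%) with a negative mutant minus control value. Without mutant pair 3 it did for 13 (0.116%), 6 (0.0534%) positive and 7 (0.0623%) negative, and 9 of the 13 were among the 29. In 27 of the 29 the region difference passed in controls and was larger in controls than in mutants. In 12 the mean over the mutant arrays was below 4. Where the mutant arrays stood at the lowest value, their region difference could only be near 0, so that the test there says nothing of regional expression in mutants, and levels are given below in place of its p. The count ran from 6 to 29 when single pairs were left out (6 without mutant pair 2), and was 7 without the signal filter.

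Genes higher in control cerebrum came first. Dkk3, a secreted glycoprotein of the Dickkopf family, was at 4.44, 4.68, 4.87 and 4.48 in mutant cerebellum, against 4.57, 4.63, 4.83 and 4.57 in mutant cerebrum. The mutant regions overlapped throughout. In controls Dkk3 averaged 5.03 ± 0.37 in cerebellum and 6.65 ± 0.40 in cerebrum (SD, n = 4 each). The region difference was −0.04 in mutants and −1.63 in controls, and the 2 differed by 1.59 (limma adjusted p = 0.00052, and 0.0020 without mutant pair 3).

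Several others of this kind were at the lowest values in the mutants. Alx1, a homeodomain factor of cranial mesenchyme, averaged 2.17 ± 0.01 in mutant cerebellum and 2.32 ± 0.08 in mutant cerebrum, against 5.21 ± 0.76 in control cerebrum (SD, n = 4 each). St6galnac5, a brain sialyltransferase, and Cspg5, a proteoglycan of neural tissue, did not vary over the 8 mutant arrays, at 2.16 and 2.18, and averaged 4.28 ± 0.37 and 4.81 ± 0.85 in control cerebrum (SD, n = 4 each). Ncan, another such proteoglycan, averaged 2.23 ± 0.03 in mutant cerebellum and 2.26 ± 0.01 in mutant cerebrum, against 3.40 ± 0.12 in control cerebrum (SD, n = 4 each). Chst2, a sulfotransferase of carbohydrate chains, was at 2.74, 2.71, 2.22 and 2.74 in mutant cerebellum, against 3.14, 3.00, 2.90 and 2.71 in mutant cerebrum, and averaged 5.40 ± 0.43 in control cerebrum (SD, n = 4).

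Pantr1, a noncoding RNA beside the gene for the forebrain factor Pou3f3, was lower in cerebellum in both genotypes and passed the test in controls only. It was at 3.71, 3.85, 3.71 and 3.71 in mutant cerebellum, against 4.37, 4.22, 4.37 and 5.02 in mutant cerebrum. All cerebellum values lay below all cerebrum values, by −0.75 ± 0.16 (limma adjusted p = 0.28), against −2.52 ± 0.12 in controls (adjusted p = 0.0025). The difference between genotypes was 1.77 (adjusted p = 0.024), and 1.74 without mutant pair 3 (adjusted p = 0.080). Controls averaged 4.32 in cerebellum and 6.84 in cerebrum. Apart from array 2, the mutant cerebellum arrays shared the value 3.71, which may be the lowest this probe set takes. The mutant difference may therefore be cut short, and the test cannot separate a smaller regional difference from a lower level.

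Genes higher in control cerebellum formed the other set. Aldh1a1, which makes retinoic acid, was bright in both genotypes. It was at 12.24, 11.02, 11.67 and 10.84 in mutant cerebellum, against 11.74, 10.74, 11.57 and 11.28 in mutant cerebrum, where pair 4 ran opposite to the rest. In controls it averaged 11.68 ± 0.30 in cerebellum and 10.09 ± 0.38 in cerebrum (SD, n = 4 each). The differences of 0.11 and 1.58 differed by −1.48 (limma adjusted p = 0.032, and 0.080 without mutant pair 3).

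Cdh11, a mesenchymal cadherin, was at 6.87, 6.96, 7.18 and 6.59 in mutant cerebellum, against 6.90, 7.09, 7.26 and 6.77 in mutant cerebrum. Each pair was slightly lower in cerebellum, and the 95% interval of the mutant difference ran from −0.23 to 0.02. In controls Cdh11 averaged 8.62 ± 0.43 in cerebellum and 7.56 ± 0.38 in cerebrum (SD, n = 4 each), and the genotypes differed by −1.17 (limma adjusted p = 0.0050, and 0.022 without mutant pair 3). Ncald, the calcium sensor neurocalcin delta, differed between genotypes by −1.26 (adjusted p = 0.015, and 0.048 without mutant pair 3). Both are named after their values were seen.

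Ebf2, a transcription factor of mesenchymal and mural cells, averaged 2.18 ± 0.04 in mutant cerebellum and 2.16 in mutant cerebrum, against 5.20 ± 0.62 in control cerebellum (SD, n = 4 each). St8sia1, the sialyltransferase that makes ganglioside GD3, and Rasl11a, a small GTPase, were likewise between 2.16 and 2.20 on all mutant arrays, and averaged 3.84 ± 0.42 and 4.12 ± 0.31 in control cerebellum (SD, n = 4 each). Ano4, a scramblase of the anoctamin family, Tmem182, a membrane protein, and Grm7, a metabotropic glutamate receptor, were between 2.16 and 2.63 on all mutant arrays, and averaged 5.47 ± 0.31, 4.71 ± 0.69 and 6.14 ± 0.12 in control cerebellum (SD, n = 4 each). Cyp2e1, a cytochrome P450, was at 10.82, 10.20, 13.04 and 8.75 in mutant cerebellum, against 10.49, 9.75, 12.84 and 8.63 in mutant cerebrum. It varied far more between pairs than between regions and differed between genotypes by −1.36 (limma adjusted p = 0.031), which was lost without mutant pair 3 (adjusted p = 0.080).

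The pericyte markers also differed: 17 of 22 passed between regions in controls, and Pdgfrb averaged 10.69 ± 0.51 in mutant cerebellum and 9.94 ± 0.47 in mutant cerebrum, against 13.38 ± 0.09 and 12.83 ± 0.07 in the same regions of controls (SD, n = 4 each). Their part in the 29 genes was not tested.

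In 3 genes a region difference was seen in the mutants while controls stayed at or near the lowest value, and they are named after their values were seen. Frzb, a secreted Wnt antagonist, was at 2.68, 2.50, 2.62 and 3.91 in mutant cerebellum, against 5.52, 5.30, 3.33 and 6.48 in mutant cerebrum, where array 3 was the lowest and overlapped cerebellum. In controls it was at 2.17 ± 0.01 in both regions (SD, n = 4 each). With controls at the lowest value their region difference could only be near 0, so no test between genotypes is given for it.

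Slc22a14, of the organic cation transporter family, was at 2.17, 2.17, 3.41 and 2.72 in mutant cerebellum, against 4.89, 5.79, 3.65 and 6.08 in mutant cerebrum, without overlap. Control arrays averaged 2.17 in both regions. The mutant difference was −2.48 ± 0.62 (limma adjusted p = 0.28), and −3.23 ± 0.21 without pair 3 (adjusted p = 0.078). S1pr5, a sphingosine 1-phosphate receptor, was at 3.10, 2.45, 3.54 and 5.36 in mutant cerebellum, against 4.27, 3.83, 4.19 and 6.80 in mutant cerebrum. Pair 4 was high in both regions, each pair was lower in cerebellum, and the mutant difference was −1.16 ± 0.15 (adjusted p = 0.28), and −1.33 ± 0.08 without pair 3 (adjusted p = 0.078). Control arrays averaged 2.44 ± 0.10 in cerebellum and 2.37 ± 0.08 in cerebrum (SD, n = 4 each).

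**Figure D5:**
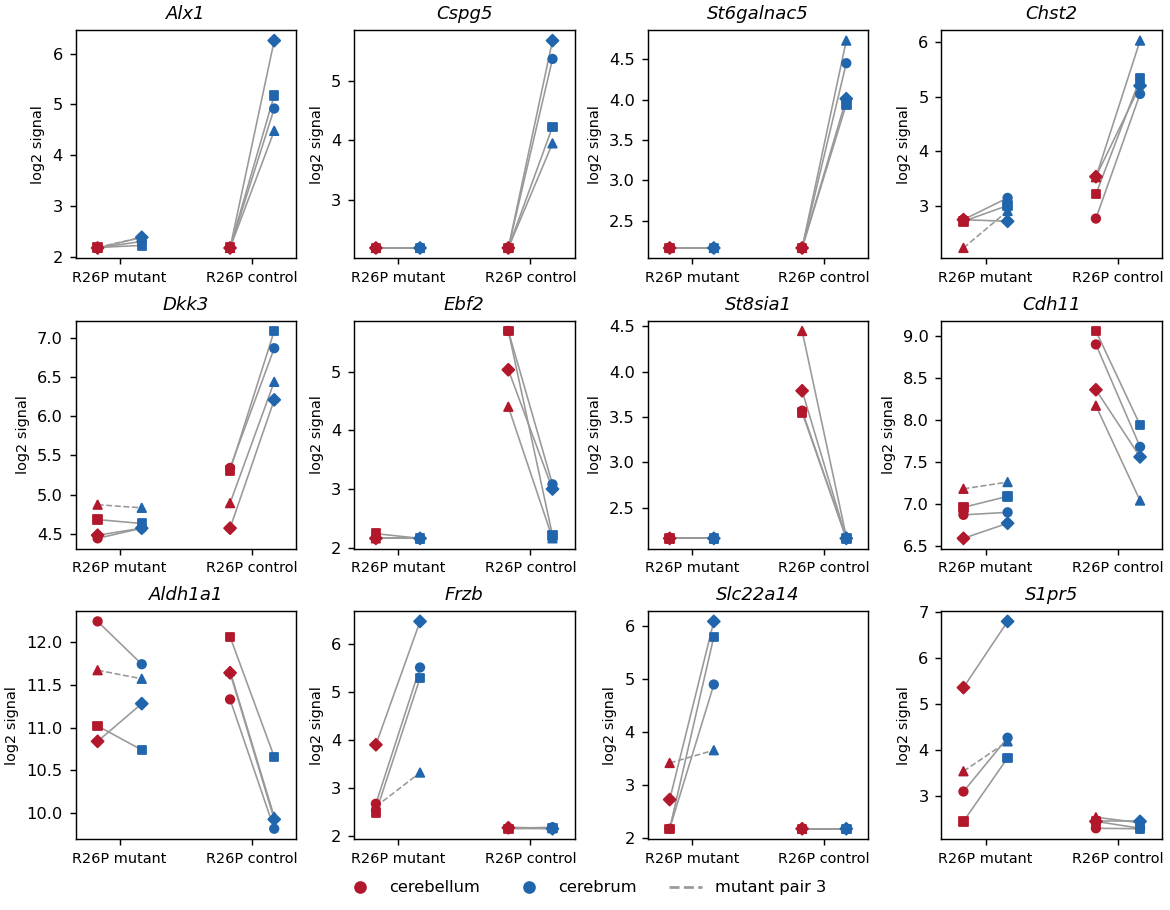
Log2 signal (vertical axis) of 12 genes on each R26P mutant array (left of each panel) and R26P control array (right), with cerebellum in red left of cerebrum in blue, a line per pair and mutant pair 3 dashed. Dkk3 and Cdh11 show nearly flat mutant lines beside sloping control lines, and Frzb and Slc22a14 show sloping mutant lines beside controls near 2.17.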

How the data were processed

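Microvascular fragments had been profiled on Affymetrix mouse arrays. The deposited values are log2 signals that the authors made with GCRMA 2.6.0 under R 2.4.1, per the submitters' processing notes. GCRMA corrects background by probe sequence, so many low genes pile up at a shared lowest value, 2.16 on the ret and R26P arrays and 2.17 on the 6 wild-type arrays, which were therefore compared only among themselves. Some probe sets repeat a higher value instead, as Cga at 2.78 in control cerebellum and Cux2 at 6.82 in mutant cerebrum (SD 0, n = 4 each). A value above 2.16, or a gene past the signal filter, is therefore not always measured signal. The platform annotation gave 1 gene symbol for 34958 of the 45101 probe sets, several for 932 and none for 9211. Each of 18194 genes was represented by its probe set with the highest mean over the 30 arrays, and 11243 genes above 4 on at least 3 arrays were tested. Arrays carry no depth, and their number limits the precision.

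Two-sided tests between regions used lmFit and eBayes of limma (version 3.58.1; R version 4.3.3), with the replicate number as a block and Benjamini-Hochberg adjustment over all genes, on the arrays of 1 genotype at a time. The difference between genotypes used the 16 R26P arrays with each numbered pair as a block. The labels do not say what a number shares, so pairing was checked: deviations from group means of same-numbered arrays correlated at 0.546 to 0.840 in mutants, 0.479 to 0.650 in controls and 0.344 to 0.483 in wild type, each best with its own number. Without the block, 0 genes passed in the mutants, as with it. The procedure was tested on simulated data.

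Named genes are those with the smallest p-values each way in the mutants (14 each way, same sign in 4 pairs, mean of at least 6 where higher), the 6 largest each way without pair 3, the 8 largest each way in the genotype test, up to 4 called or the 2 brightest members of 32 lists, and a fixed set. The part of the rule for genes called in all 3 genotypes named none, since the mutants gave 0 with 4 pairs. The arrays compared, the lists and the rule were chosen with earlier results of these data known. Alternatives were other filters, probe set rules, a trend in the spread, renewed quantile normalization, a wider spread estimate, no block and left-out pairs. The ret arrays were used only to choose and filter probe sets.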

Additional observations from a re-analysis of the deposited data

Results flagged for a closer look

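In the 92 genes examined by array, 184 groups of 4 arrays gave 28 with 1 array far from the other 3; chance gives about 1 in 20 independent groups, and groups of the same arrays are not independent. Array 3 was that array in many. In mutant cerebellum it was high for Gh (14.75, others 2.17 to 2.22), Cga (14.42, others 2.78), Prl (10.95, others 2.16), Pdgfb (7.51, others 4.73 to 5.02) and Ddn (3.56, others 2.16 to 2.21). It was low there for Slc1a3 (6.30, others 7.50 to 7.60) and Chst2 (2.22, others 2.71 to 2.74), and at 2.43 for Trim9, where the others were at 2.42. In mutant cerebrum array 3 was high for Slc4a5 (7.25, others 4.12 to 4.21), Ppp1r1b (6.17, others 3.60 to 3.88), Pifo (5.05, others 4.23 to 4.35) and Gabra6 (2.39, others 2.16), and near the lowest value for Ncan (2.24, others 2.27) and Rasl11a (2.17, others 2.16).

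Array 4 stood apart in mutant cerebellum for Nfkbiz (11.22, others 9.43 to 9.71), Ccl3 (11.97, others 8.75 to 9.11), Ebi3 (8.99, others 5.71 to 6.15) and Frzb (3.91, others 2.50 to 2.68). In mutant cerebrum it was high for Ebi3 (9.61, others 6.67 to 6.89), Arhgap9 (9.15, others 7.23 to 7.44) and S1pr5 (6.80, others 3.83 to 4.27), and low for Cap2 (5.57, others 6.70 to 6.87) and Ano1 (7.88, others 9.05 to 9.20). The remaining arrays differed by little: Sox17 on cerebellum 1 (15.07, others 15.01), Ano4 on cerebellum 1 (2.21, others 2.16), and on cerebellum 2 Pantr1 (3.85, others 3.71), Ebf2 (2.24, others 2.16) and Rasl11a (2.20, others 2.19).

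The region difference of 19 of the examined genes differed by more than 1 log2 unit between R26P mutants and controls and passed limma's test. The mutant minus control values in log2 units were 2.89 for Alx1, 2.63 for Cspg5, 2.12 for St6galnac5, 1.81 for Chst2, 1.77 for Pantr1, 1.59 for Dkk3, 1.10 for Trim9 and 1.09 for Ncan. Without mutant pair 3, 10 of the 19 were no longer past the threshold: Alx1, Cspg5, Pantr1, Trim9, Ano4, St8sia1, Aldh1a1, Grm7, Cyp2e1 and Rasl11a. Several stand at or near the lowest value on the mutant arrays, as S1pr5 does on the control arrays, where a region difference could only be near 0. The negative values were −2.57 for Ebf2, −1.97 for Ano4, −1.67 for St8sia1, −1.51 for Tmem182, −1.48 for Aldh1a1, −1.39 for Grm7, −1.36 for Cyp2e1, −1.31 for Rasl11a, −1.26 for Ncald, −1.23 for S1pr5 and −1.17 for Cdh11. Slc1a3 (0.98) and Mn1 (0.70) passed the same test with smaller values, and neither passed without mutant pair 3.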

How the results depend on the processing

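The 0 genes past the threshold in the mutants became 12 with the spread over all R26P arrays and 11 without pair 3, and stayed at 0 under the other alternatives run, including no replicate block. The count without pair 3 was 4 with no filter, 181 with the stricter filter, 6 with all probe sets, 234 with an intensity trend, 33 after renewed quantile normalization, 313 with the wider spread and 0 without any further pair; of the 11 genes, 8, 11, 11 and 10 were among the 181, 234, 33 and 313. These alternatives for 3 pairs were chosen after seeing the data. Control counts were 132 with no replicate block, 0 with no filter (2381 at an unadjusted p under 0.05 in limma), and 37 to 159 with 1 pair left out. Wild type gave 238 with no replicate block and 0 with 1 pair left out (1530 to 1711 unadjusted). The genotype test gave 13 with no replicate block, 7 with no filter and 6 to 29 with 1 pair left out, and the cause was not tested. Of 985 values of 92 named genes under alternatives, 960 kept direction and side of the threshold, and 19 passed it. The sign turned in 6, all small: Cldn5 to −0.031, Slco1a4 to −0.021 and Ncald to −0.021 under quantile normalization. With 1 pair left out, Ctss ran from −0.126 to 0.02, Aldh1a1 from −0.022 to 0.292 and Ncald from −0.05 to 0.154. Of 276 values of 23 genes in the genotype test, 171 stayed, 101 lost the threshold and 4 passed it. Signals near 2.16 limit the size of any difference.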

Other observations

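Some genes outside the lists had a smaller yet steady difference between the mutant regions. Lgr4, a receptor for R-spondins, was at 7.86, 7.80, 8.18 and 7.50 in mutant cerebellum, against 7.27, 7.12, 7.66 and 7.13 in mutant cerebrum, a difference of 0.54 ± 0.07 (SE, limma adjusted p = 0.28), while controls differed by 0.09 ± 0.09 (adjusted p = 0.59). The difference between genotypes did not pass the threshold for Lgr4. Dnaja4, a heat shock cochaperone, averaged 9.67 ± 0.06 in mutant cerebellum and 9.30 ± 0.11 in mutant cerebrum (SD, n = 4 each), with no overlap. Mn1, a transcriptional coregulator, was higher in mutant cerebellum by 0.50 ± 0.07 (limma adjusted p = 0.28) and lower in control cerebellum by −0.20 ± 0.08 (adjusted p = 0.20). Its region difference differed between genotypes by 0.70 (limma adjusted p just under 0.05), which was lost without mutant pair 3 (adjusted p = 0.080). Abcc3, an efflux transporter, was at 5.24, 5.17, 4.13 and 5.64 in mutant cerebellum, against 6.26, 7.12, 5.17 and 6.74 in mutant cerebrum, and passed in controls (−1.54 ± 0.17, adjusted p = 0.016) and in wild type (−1.29 ± 0.06, adjusted p = 0.028). Aldh18a1, an enzyme of proline synthesis, differed by −0.29 ± 0.05 in mutants (adjusted p = 0.28) and −0.02 ± 0.13 in controls (adjusted p = 0.96). Between genotypes its difference was −0.27 (limma adjusted p = 0.59).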
